A study of Mus musculus with 2 samples.

Results

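The 53 genes described here are switched on when a cell copies its DNA or divides. Of these, 29 act mainly in mitosis and 24 mainly in S phase, the stretch of the cell cycle in which DNA is copied. They were picked by symbol, and each matched 1 of the 32285 gene rows in both tables of UMIs (unique molecular identifiers, each of which marks 1 captured RNA molecule). Single-cell RNA sequencing had been run on live CD45+ cells sorted out of subcutaneous MC38 (murine colon carcinoma) tumors in WT mice. The Control library came from tumors without irradiation, and the IR library from tumors taken 4 days after a single local dose of 20 Gy. Each library pooled several tumors, so a group was 1 library and no test between groups could be run. The study used young adult mice of both sexes, and elsewhere in it WT stands for Ythdf2 fl/fl mice without Cre on the C57BL/6J background. The labels of both libraries also name a narrower population (CD45+CD11b+Ly6Chi), whereas lymphocytes and cells poor in CD45 were present in both.

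After barcodes with under 1000 UMIs or over 25% mitochondrial UMIs were left out, 4679 and 3411 barcodes remained in Control and IR, with a median of 7302 and 8266 UMIs. The libraries shared 6 of these barcodes. Cells were placed in lineages, called gates here, by the UMIs of marker genes. Macrophages were gated by C1qa, Adgre1 and others, monocytes by Ly6c2, Plac8 and others, T cells by Cd3e, Trac and others, natural killer (NK) cells by Ncr1, Klre1 and others, dendritic cells (DC) by Ccr7 and Fscn1 or by Flt3 and Xcr1 and others, and stromal cells by collagen genes, Dcn and Sparc. A gate was given to 79.4% and 79.7% of barcodes, while 10.6% and 9.18% carried markers of more than 1 lineage and were kept out. In Control and IR the gates held 2021 and 443 macrophages, 590 and 1027 monocytes, 432 and 313 T cells, 337 and 423 NK cells, 191 and 212 DC and 80 and 68 stromal cells. The defining markers were present, since C1qa was seen in 95% and 92.6% of macrophage-gate cells, Cd3e in 94.0% and 93.0% of T-gate cells and Ncr1 in 75.1% and 62.7% of NK-gate cells. The stromal gate did not match the sort, because Ptprc, which encodes CD45, was seen in only 5% and 8.82% of its cells. There Sparc was seen in every cell and Dcn in 87.5% and 94.1%, but Col1a1 in 21.3% and 26.5% and the epithelial gene Epcam in none.

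A dividing cell first licenses its replication origins, when Cdc6 and Cdt1 load the Mcm2 to Mcm7 ring on DNA. It then fires these origins with Cdc45 and its partners, copies DNA behind the Pcna clamp, and feeds the forks with nucleotides. Mitosis is started by Cdk1 with its cyclins, carried out by kinetochores and spindle motors, and ended when the anaphase-promoting complex (APC/C) tags cyclins for destruction. Transcription of many S-phase genes is led by E2F factors, and that of many mitotic genes follows later through CCAAT boxes and a short element called the CHR (cell cycle genes homology region). In tumors, macrophages, activated T cells and NK cells are able to divide, whereas mature neutrophils are not.

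Promoter sequence from RefSeq (GRCm38.p6) was matched by symbol to 45 of the 53 members, in 47 windows that ran from 250 bases before to 50 after the start of a transcript. The CHR letters TTTGAA, read on both strands, occurred in 19 of 24 mitotic windows, 3 of 23 S-phase windows and 17.9% of all 32851 windows. The CCAAT letters occurred in 21 of 24 mitotic and 15 of 23 S-phase windows, against 37.4% of all. The E2F letters searched were TTTGGCGC, TTTCCCGC, TTTGCCGC and TTTCGCGC, and they occurred in 1 of 24 mitotic and 8 of 23 S-phase windows, against 2.26% of all. To show how the classes differ in letters, the 160 bases before the start are printed here for the first member of each role that held a CHR or E2F match there, and for Mcm6, which was chosen after the matches were seen. Capitals mark CHR, CCAAT and E2F letters on either strand, and where matches overlap the capitals run together. A match is a description and not a bound site. Starts are those of RefSeq and differ from the GENCODE gene ends given further on, by which all 160 printed bases of Cdc6, 31 of Ube2c and 26 of Cdk1 lie inside the gene.
Mki67 (chr7:135716380-135716539, minus strand): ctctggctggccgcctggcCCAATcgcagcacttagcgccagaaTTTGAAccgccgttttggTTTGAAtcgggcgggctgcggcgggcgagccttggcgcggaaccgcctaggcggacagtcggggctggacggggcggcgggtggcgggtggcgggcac
Cdk1 (chr10:69352913-69353072, minus strand): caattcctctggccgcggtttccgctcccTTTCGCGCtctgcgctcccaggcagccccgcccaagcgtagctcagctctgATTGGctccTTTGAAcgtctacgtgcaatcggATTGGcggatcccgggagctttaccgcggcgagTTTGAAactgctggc
Ube2c (chr2:164769769-164769928, plus strand): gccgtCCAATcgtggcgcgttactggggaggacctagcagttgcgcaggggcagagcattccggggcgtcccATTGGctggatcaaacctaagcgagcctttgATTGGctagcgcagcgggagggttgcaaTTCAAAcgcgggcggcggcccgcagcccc
Kif11 (chr19:37376222-37376381, plus strand): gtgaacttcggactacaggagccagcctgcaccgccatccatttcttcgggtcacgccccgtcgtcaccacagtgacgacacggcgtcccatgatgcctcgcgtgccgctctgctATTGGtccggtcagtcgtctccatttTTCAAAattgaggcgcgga
Cdc6 (chr11:98907991-98908150, plus strand): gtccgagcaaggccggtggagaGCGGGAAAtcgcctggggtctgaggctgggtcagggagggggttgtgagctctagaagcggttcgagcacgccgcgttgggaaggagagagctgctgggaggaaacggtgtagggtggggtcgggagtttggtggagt
Mcm6 (chr1:128359706-128359865, minus strand): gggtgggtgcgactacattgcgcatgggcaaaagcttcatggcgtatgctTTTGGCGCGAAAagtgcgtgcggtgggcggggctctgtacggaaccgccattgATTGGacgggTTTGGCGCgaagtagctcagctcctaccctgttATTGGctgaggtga
In these stretches Mki67 and Cdk1 each held 2 CHR matches and Ube2c and Kif11 each held 1, while Cdc6 and Mcm6 held 0. Mcm6 held 3 E2F matches, and Cdk1 and Cdc6 held 1 each.

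Across all kept cells the mitotic members made up 1175 and 747 CPM (UMIs per 1e6 UMIs) in Control and IR, and the S-phase members 1086 and 867 CPM. The gates differed in how far the libraries lay apart. In macrophages the summed mitotic members of IR were 0.45 times those of Control. This factor was 0.32 in DC and 0.50 in monocytes, 0.78 in T cells, 0.84 in NK cells and 0.92 in the stromal gate, and the S-phase members of NK cells were higher in IR. Paired values are given here as Control and then IR, and all compare 1 library with 1 library. Their 95% intervals cover counting error only, neither the spread between mice nor that between cells, and differences between gates were not tested.

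In the macrophage gate the mitotic members summed to 23413 UMIs in Control, which is 1251 CPM (1235 to 1267), and to 2774 UMIs in IR, which is 559 CPM (538 to 579.9), with exact Poisson intervals. The log2 ratio, IR over Control, was -1.16 (-1.22 to -1.11), with an exact conditional interval. The 10 cells with most mitotic UMIs held 9.54% of them in Control and 52.7% in IR. The gate held 2021 and 443 cells, so these percentages are not directly comparable. The S-phase members were 999 CPM (985 to 1014) and 576 CPM (555 to 597), a log2 ratio of -0.80 (-0.85 to -0.74). Both classes were thus lower in IR, the mitotic one further. Of the members, 20 of 29 mitotic and 8 of 24 S-phase genes were at least 2-fold lower in IR, and 0 were at least 2-fold higher. Among all 11531 genes with at least 20 UMIs in the gate, 5.21% were at least 2-fold lower and 3.3% at least 2-fold higher. The median log2 ratio was -1.24 over the mitotic and -0.81 over the S-phase members, against -0.07 over all of those genes.

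To count dividing cells at equal depth, each cell was thinned at random to 1000 UMIs and called mitosis-positive with at least 2 UMIs of the mitotic members, and S-phase-positive likewise. Among Control macrophages 346 of 2021 were mitosis-positive, or 17.1% (15.5% to 18.8%) with an exact binomial interval, and among IR macrophages 27 of 443, or 6.09% (4.05% to 8.74%). The ratio of the shares was 0.36 (0.24 to 0.52), with an interval by the log method. S-phase-positive cells made up 17.7% (16.1% to 19.4%) and 8.13% (5.76% to 11.1%) of the gate, a ratio of 0.46 (0.33 to 0.64). Cells positive for both classes were 8.66% and 2.26%. The share of dividing macrophages was therefore lower in IR by either class. Without thinning, the mitosis-positive shares were 45.2% and 29.1%, and the S-phase-positive shares were 69.8% and 66.4%, a ratio of 0.95. The cutoff divides a range of values, since 23.8% and 21.7% of Control and IR macrophages held 1 mitotic UMI and 8.56% and 6.09% held 2.

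Neutrophils, which should lack these transcripts, gave the background. In their gate 2 of 21 Control and 3 of 171 IR cells were mitosis-positive, the latter being 1.75% (0.363% to 5.04%). S-phase-positive neutrophils were 0 of 21, which allows a share of up to 14.3% by a limit of 3 counts and up to 16.1% by the exact interval, and 1 of 171. Their median depth was 1831 and 2551 UMIs, against 8463 and 9065 in the macrophage gate. The Control neutrophil gate is too small to set a background, and the IR gate lies below every T, NK, stromal and macrophage share given here. Droplets with at most 100 UMIs, taken as empty, held 1522 and 810.0 CPM of the mitotic members in Control and IR, so that free RNA carried these transcripts in both libraries. Estimated from the UMIs of stromal genes, free RNA supplied 9.05% and 6.90% of the mitotic UMIs of macrophages.

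**Figure D1:**
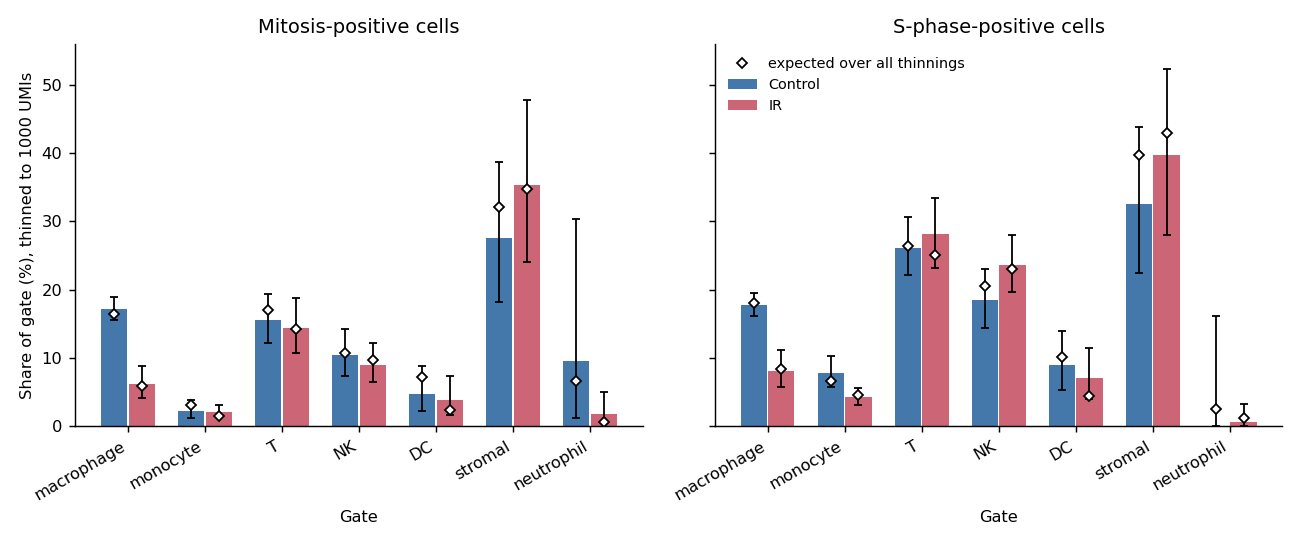
Share of each gate that was mitosis-positive (left) or S-phase-positive (right), in percent, with cells thinned to 1000 UMIs, for the Control and IR libraries with exact 95% binomial intervals. In macrophages the IR intervals lie wholly below the Control intervals in both panels, and in monocytes they do so in the S-phase panel only. The T, NK, DC, stromal and neutrophil intervals overlap.

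The macrophage gate itself differed between the libraries, since the monocyte gene Ly6c2 was seen in 17.0% and 54.0% of its cells and Plac8 in 22.8% and 59.1%. Splitting the gate at the monocyte cutoff left IR lower on both sides. Under the cutoff, mitosis-positive shares were 18.9% (17.0% to 20.9%) and 7.31% (4.46% to 11.2%), a ratio of 0.39 (0.25 to 0.60). At or over it they were 10.0% (7.27% to 13.3%) and 4.37% (1.91% to 8.43%), a ratio of 0.44 (0.21 to 0.91). For the S-phase-positive shares the ratio was 0.41 (0.26 to 0.63) under the cutoff and 0.68 (0.40 to 1.15) at or over it, where the interval included 1.

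Monocytes carried few of these transcripts in either library. Mitosis-positive monocytes were 13 of 590 in Control, or 2.20% (1.18% to 3.74%), and 21 of 1027 in IR, or 2.04% (1.27% to 3.11%), close to the IR neutrophil share. The mean over all possible thinnings was 3.097% and 1.45%, so that the ratio of shares moved with the draw. The summed mitotic members were 321 and 161 CPM, a log2 ratio of -0.999 (-1.11 to -0.89), which was -0.63 after the estimated free RNA was removed. That estimate came to 40.6% and 23.1% of the monocytes' mitotic UMIs, and the 10 cells with most of them held 56.7% in Control and 30.9% in IR. The S-phase members were 453 and 334 CPM, a log2 ratio of -0.44 (-0.53 to -0.35). S-phase-positive shares were 7.80% (5.76% to 10.3%) and 4.19% (3.05% to 5.60%), yet 49.3% and 58.8%, in the opposite order, without thinning, at a median depth of 5340 and 7949 UMIs. Of the 47 members with at least 20 UMIs, 20 were at least 2-fold lower in IR, against 2.22% of all genes, and 0 were 2-fold higher, against 3.15%.

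T cells held many dividing cells in both libraries. Mitosis-positive shares were 15.5% (12.2% to 19.3%) and 14.4% (10.7% to 18.8%), and S-phase-positive shares 26.2% (22.1% to 30.6%) and 28.1% (23.2% to 33.4%). The ratios, 0.93 (0.65 to 1.31) and 1.07 (0.85 to 1.36), both had counting intervals that included 1. Summed mitotic members were 1619.5 and 1259 CPM, a log2 ratio of -0.36 (-0.42 to -0.30), and S-phase members 1625 and 1512 CPM, a log2 ratio of -0.10 (-0.16 to -0.05). Without the 6% of barcodes with most UMIs the mitotic value was -0.82, and with stricter gates the S-phase value was 0.12, so the sign of the latter depends on the gate. Of 53 members, 0 were 2-fold lower and 0 2-fold higher, where 1.71% and 4.44% of all genes were. In T cells with a UMI of Cd8a or Cd8b1 and none of Cd4, the mitosis-positive shares were 19.4% and 17.9%. The S-phase-positive shares of these cells were 32.4% and 36.4%. T cells with a UMI of Cd4 and none of Cd8a or Cd8b1 gave 11 of 80 and 11 of 59 mitosis-positive cells.

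NK cells were the gate in which the S-phase members were higher in IR. These members were 1175 CPM (1134 to 1217) and 1348 CPM (1314 to 1382), a log2 ratio of 0.20 (0.14 to 0.26), while the mitotic members were 1079 and 907 CPM, a log2 ratio of -0.25 (-0.32 to -0.18). Over the alternatives the S-phase value ran from 0.11 without the deepest 6% of barcodes to 0.29 with looser gates. S-phase-positive NK cells were 18.4% (14.4% to 23.0%) and 23.6% (19.7% to 28.0%), a ratio of 1.28 (0.97 to 1.70), and mitosis-positive NK cells 10.4% (7.34% to 14.1%) and 8.98% (6.44% to 12.1%). The means over all thinnings were 20.6% and 23.0% for S phase and 10.7% and 9.61% for mitosis. The granzyme gene Gzma was seen in 63.8% and 87.5% of the gate, and within Gzma-positive cells the S-phase-positive shares were 17.7% and 23.2%. Among the members, 1 was 2-fold lower and 1 2-fold higher, against 1.9% and 3.63% of all genes. Above 0 were 19 of 24 S-phase members, against 45.4% of all genes in the gate, and below 0 were 24 of the 28 mitotic members with at least 20 UMIs, against 54.6%. The median log2 ratio was 0.22 over the S-phase and -0.32 over the mitotic members, against -0.04 over all genes.

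Among summed UMIs, DC gave the lowest mitotic ratio of the 6 gates, but on few cells. The mitotic members were 601 CPM (564 to 640.1) and 194 CPM (176 to 214), a log2 ratio of -1.63 (-1.80 to -1.47), and the S-phase members 709 and 351 CPM, a log2 ratio of -1.02 (-1.15 to -0.88). In Control 10 of 191 cells held 69.2% of the mitotic UMIs, and with each cell given equal weight the ratio was -1.11, against -1.47 in macrophages. Mitosis-positive DC were 9 of 191 and 8 of 212, a ratio of 0.80 (0.32 to 2.03), and the mean over all thinnings was 7.11% and 2.39%. Mature DC, gated by Ccr7 and others, had 425 and 153 CPM of the mitotic members, and conventional DC, gated by Flt3, Xcr1 and others, 1014 and 315 CPM. Of 34 members with at least 20 UMIs, 23 were 2-fold lower in IR, against 3.39% of all genes, and 0 2-fold higher, against 2.93%.

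The stromal gate had the highest member levels of the 6 gates in both libraries. Mitosis-positive cells were 22 of 80 or 27.5% (18.1% to 38.6%), and 24 of 68 or 35.3% (24.1% to 47.8%), a ratio of 1.28 (0.79 to 2.07). Summed mitotic members were 2655 and 2450.3 CPM, a log2 ratio of -0.12 (-0.18 to -0.06), which became 0.27 when each cell had equal weight. S-phase members were 2461 and 1899 CPM, a log2 ratio of -0.37 (-0.44 to -0.31), which became 0.55 when the deepest 6% of barcodes were left out. Neither direction was therefore stable in this gate, where 10 cells held 71.9% of the Control and 73.0% of the IR mitotic UMIs and the median depth was 17134.5 and 29454 UMIs. Here 1 member was 2-fold lower, against 2.56% of all genes, and 0 were 2-fold higher, against 3.26%.

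**Figure D2:**
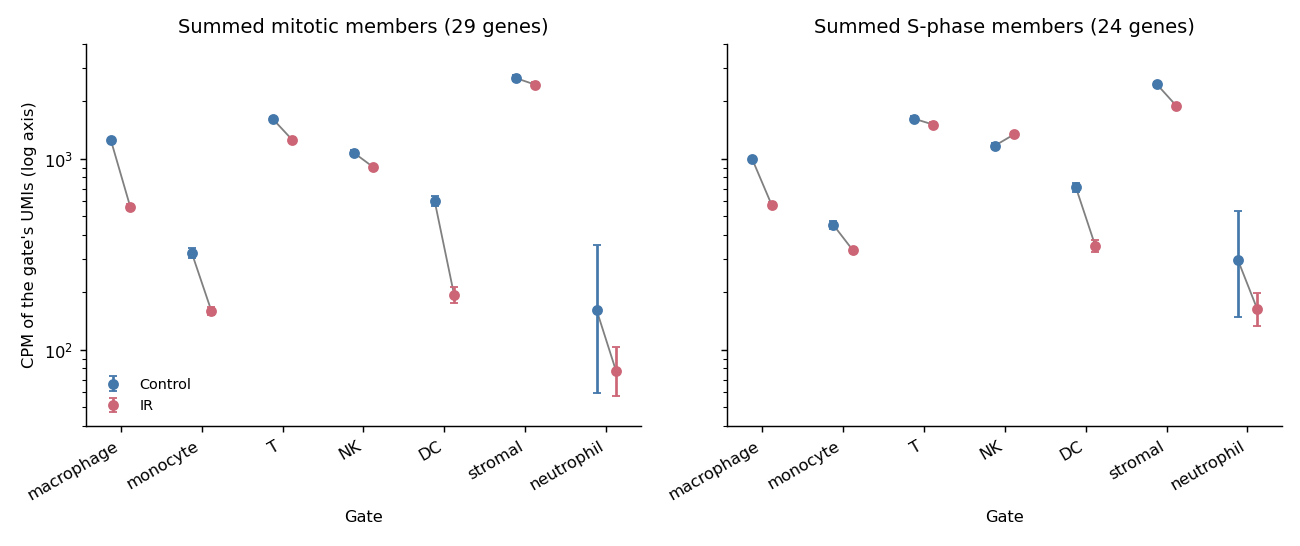
Summed UMIs of the 29 mitotic (left) and 24 S-phase members (right) as CPM of each gate, on a log axis, with exact 95% Poisson intervals, for Control and IR. The macrophage, monocyte and DC values are lower in IR in both panels, and the NK value of the S-phase members is higher, at 1348 CPM against 1175 CPM.

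By mitotic level the gates were ordered stromal, T, macrophage, NK, DC and monocyte in Control, and stromal, T, NK, macrophage, DC and monocyte in IR. In both orders all neighbours had Poisson intervals that did not overlap. After removal of the estimated free RNA, however, the IR values were 120.4 CPM in DC and 123.5 CPM in monocytes, in the opposite order. Of the mitosis-positive barcodes, macrophages supplied 346 of 650 in Control (53.2%, 49.3% to 57.1%) and 27 of 227 in IR (11.9%, 7.99% to 16.8%). T cells supplied 67 and 45, NK cells 35 and 38, and stromal cells 22 and 24. The number of gated macrophages also differed, so these shares mix the makeup of a library with the share of dividing cells in each lineage.

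The balance between the classes was lower on the mitotic side in IR in each of the leukocyte gates. In Control and IR, mitotic UMIs were 55.6% and 49.2% of the members' UMIs in macrophages, 41.4% and 32.4% in monocytes, 49.9% and 45.4% in T cells, 47.9% and 40.2% in NK cells and 45.9% and 35.6% in DC. In the stromal gate they were 51.9% and 56.3%, in the opposite order. The UMIs of 1 cell are not independent draws, so the binomial intervals of these shares, which did not overlap between libraries in any of the 6 gates, are too narrow for the spread between cells.

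**Figure D3:**
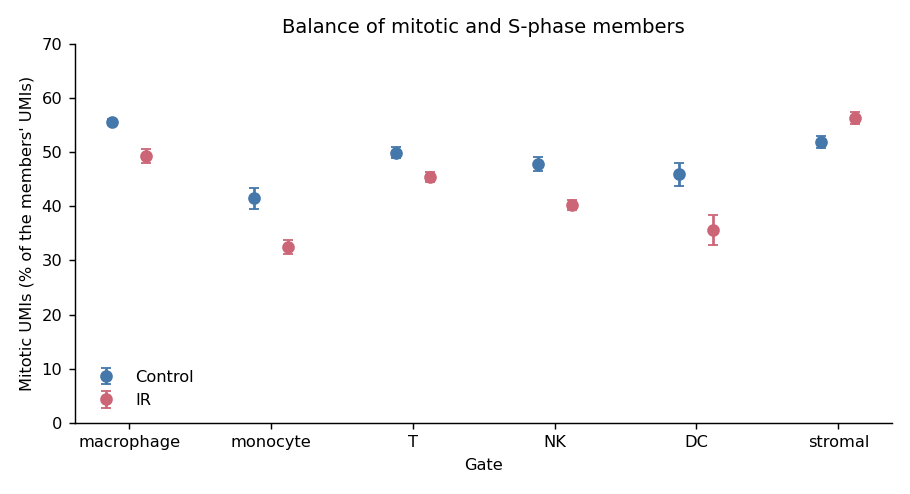
Mitotic UMIs as a percent of all UMIs of the 53 members, by gate, for Control and IR, with exact 95% binomial intervals. IR lies below Control in macrophages, monocytes, T cells, NK cells and DC, and above it in the stromal gate.

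For single members, paired values are those of Control and then IR, a value with an interval is a log2 ratio of IR over Control, and ranks within a gate are among members with at least 20 UMIs there over both libraries. The intervals are not adjusted for the number of members. All 9 cyclins and kinases of mitotic entry were lower in IR macrophages, against 57.6% of all genes in the gate, with a median log2 ratio of -1.19. Cdk1 (chromosome 10, 69335146 to 69352938, on mm10), the kinase that starts mitosis, had 812 UMIs in Control (43.4 CPM) and 119 in IR (23.97 CPM) in macrophages, a log2 ratio of -0.86 (-1.15 to -0.58). In T cells Cdk1 was 41.7 and 30.8 CPM, and in NK cells 24.7 and 23.4 CPM, where the interval of the ratio included 0. Ccna2 (chromosome 3, 36564865 to 36572150), a cyclin of S phase and early mitosis, was 44.0 and 15.5 CPM in macrophages and had the lowest DC ratio of all members, on 35 and 4 UMIs. The lowest monocyte ratio was that of Ccnb1, the B-type cyclin that partners Cdk1, on 18 and 7 UMIs. A few members of this role lay above 0 elsewhere: Aurka, a kinase of the spindle poles, was 22.7 and 36.5 CPM in the stromal gate, 0.69 (0.08 to 1.32), and Aurkb, the kinase of the chromosomal passenger complex, was 10.6 and 16.8 CPM in NK cells, 0.66 (0.02 to 1.34). In monocytes Aurka had 13 and 44 UMIs, 0.33 (-0.59 to 1.34). Among the members of this role seen least, Plk1, another mitotic kinase, had 4 and 0 UMIs in DC and is given no ratio there.

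All 5 APC/C and spindle checkpoint members were at least 2-fold lower in IR macrophages, against 5.21% of all genes in the gate. Ube2c (chromosome 2, 164769898 to 164778822), the ubiquitin-conjugating enzyme of the APC/C, was 115 CPM in Control and 49.1 CPM in IR in macrophages. In T cells it was 118 and 69.3 CPM, and its log2 ratio of -0.77 (-1.02 to -0.53) was the lowest of all members there. Ttk, a checkpoint kinase, had 78 and 6 UMIs in macrophages, a log2 ratio of -1.79 (-3.28 to -0.60). The highest monocyte ratio was that of Cdc20, which activates the APC/C, at 0.57 (-0.76 to 2.15) on 6 and 24 UMIs. Bub1b, a checkpoint protein, was 12.9 and 7.07 CPM in NK cells, -0.87 (-1.61 to -0.13).

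Of the 5 kinetochore members, 3 were at least 2-fold lower in IR macrophages, against 5.21% of all genes. Cenpa (chromosome 5, 30666777 to 30674830), the histone variant of the centromere, was the one that differed least there, at 77.4 and 50.8 CPM, -0.61 (-0.81 to -0.41). In DC it had the ratio closest to 0 among the members, with 64.6 and 63.6 CPM, -0.02 (-0.40 to 0.35). It was also seen widely, in 31.6% of all Control and 33.7% of all IR cells. The kinetochore motor Cenpe and its neighbour Cenpf were among the lowest members of T cells, at -0.73 (-1.23 to -0.24) and -0.69 (-1.10 to -0.29), and Cenpe had 16 and 8 UMIs in monocytes. Ndc80, which binds microtubules, was 11.01 and 6.18 CPM in NK cells, -0.83 (-1.63 to -0.03).

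The spindle and motor members held both ends of the mitotic range in macrophages. Kif11 (chromosome 19, 37376403 to 37421859), the motor that pushes spindle poles apart, had 385 UMIs in Control (20.6 CPM) and 22 in IR (4.43 CPM), a log2 ratio of -2.21 (-2.91 to -1.60) and the lowest of the 53. Kif20a, a motor of the late spindle, was 13.4 and 11.48 CPM, -0.22 (-0.67 to 0.20), the highest mitotic ratio of the gate. Kif20a was also highest of all members in T cells, at 0.38 (-0.36 to 1.15), where the interval included 0, and in the stromal gate, at 0.72 (0.24 to 1.23). Kif23, which acts in cytokinesis, was 19.7 and 9.27 CPM in NK cells, -1.09 (-1.71 to -0.47), and the only member 2-fold lower there. Nusap1, which binds spindle microtubules, was 38.1 and 53.8 CPM in the stromal gate, 0.50 (0.02 to 0.99). Stmn1, which destabilises microtubules and is also made by cells that do not divide, supplied 4258 of the 23413 mitotic UMIs of Control macrophages, and was named for this after its values were seen. Without Stmn1, Cks1b, Slbp, Dut and Ung, the mitotic log2 ratio of macrophages was -1.11. That set left in Cenpa and Pcna, which were seen in more cells than Cks1b, Dut and Ung.

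Mki67 (chromosome 7, 135689784 to 135716361), which coats mitotic chromosomes and is widely used to mark dividing cells, was 57.4 CPM in Control and 24.4 CPM in IR in macrophages. It was 85.8 and 84.3 CPM in T cells, 55.4 and 37.3 CPM in NK cells and 117 and 70.6 CPM in the stromal gate, and had 59 and 9 UMIs in DC. The T-cell values were the pair closest to each other, with a log2 ratio of -0.03 (-0.27 to 0.22). Of the other members of this role, Top2a, which untangles DNA, was 101.3 and 34.6 CPM in macrophages. Birc5, or survivin, was lower in IR macrophages (77.2 and 41.7 CPM) and higher in IR stromal cells (135 and 175 CPM), and both were named after their values were seen.

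Among the 8 origin licensing members, 7 were above 0 in NK cells, against 45.4% of all genes, with a median log2 ratio of 0.49. In macrophages 7 were below 0, against 57.6% of all genes, with a median of -0.74. Mcm3 (chromosome 1, 20802968 to 20820312), a subunit of the helicase ring, was 42.1 and 67.8 CPM in NK cells, 0.69 (0.37 to 1.01), and 59.9 and 33.0 CPM in macrophages, -0.86 (-1.10 to -0.62). Mcm2, Mcm5, Mcm6 and Mcm7 also had intervals above 0 in NK cells, at 0.50, 0.52, 0.47 and 0.59, where 10.7% of all genes did. The sixth ring subunit, Mcm4, was 0.29 (-0.06 to 0.65) in NK cells and lay near 0 in DC, at -0.03 (-0.78 to 0.73). Cdt1 had the highest ratio of all members in macrophages, 26.2 and 28.0 CPM, with an interval of -0.19 to 0.37. Cdc6 (chromosome 11, 98907801 to 98923940) had 113 and 18 UMIs in macrophages, -0.74 (-1.54 to -0.01), was 26.0 and 13.3 CPM in the stromal gate, -0.97 (-1.73 to -0.22), and was 10.2 and 12.2 CPM in T cells, where the interval included 0.

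The 4 helicase and fork members were all below 0 in macrophages, against 57.6% of all genes. Their log2 ratios were -1.70 for Cdc45, -0.39 for Gins2, -0.47 for Pcna and -1.54 for Pclaf. Cdc45 (chromosome 16, 18780447 to 18811987), which with the GINS complex turns the ring into an active helicase, had 171 and 14 UMIs. Pclaf, which binds Pcna, was 129 and 44.3 CPM in macrophages and 79.8 and 18.5 CPM in DC, whereas Pcna, the sliding clamp, was 181 and 131 CPM and 114 and 76.6 CPM. Pcna is also used in DNA repair and was seen in 56.7% of all Control and 53.8% of all IR cells. In NK cells both were nearly level, at -0.05 (-0.26 to 0.17) and -0.01 (-0.17 to 0.16).

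Of the 6 nucleotide and uracil enzymes, 4 were at least 2-fold lower in IR macrophages, against 5.21% of all genes. In NK cells 5 were above 0, against 45.4% of all genes. Rrm1 and Rrm2 form ribonucleotide reductase, which makes deoxynucleotides. Rrm1 (chromosome 7, 102441695 to 102469771) was 62.2 and 29.4 CPM in macrophages, -1.08 (-1.34 to -0.83), and 57.7 and 48.4 CPM in NK cells, -0.25 (-0.56 to 0.05). Rrm2 was 36.9 and 11.48 CPM in macrophages, 42.1 and 53.2 CPM in NK cells, 0.34 (0.01 to 0.67), and had 44 and 8 UMIs in DC. Tyms, the thymidylate synthase, had the highest S-phase ratio of monocytes, 0.15 (-0.55 to 0.90), with an interval that included 0. In macrophages the thymidine kinase Tk1, the dUTPase Dut and the uracil glycosylase Ung were at -1.13, -0.93 and -1.26.

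Ccne1 (chromosome 7, 38097984 to 38107534), the cyclin of S-phase entry, was the only member at least 2-fold higher in any of the 6 gates. It had 15 UMIs in Control (5.69 CPM) and 64 in IR (14.1 CPM) in NK cells, a log2 ratio of 1.31 (0.48 to 2.23), against 13.2 and 8.46 CPM in macrophages and 14.7 and 7.40 CPM in the stromal gate. E2f8, a repressor of E2F target genes, was 13.8 and 4.23 CPM in macrophages, -1.70 (-2.42 to -1.06), and was the only member 2-fold lower in the stromal gate, at 24.03 and 11.8 CPM. E2f1, an activator of S-phase genes, was 29.9 and 19.5 CPM in macrophages and 23.5 and 27.7 CPM in T cells, where the interval included 0. Slbp, which binds histone mRNA and was seen in 42.1% of all Control and 47.8% of all IR cells, was 69.1 and 57.2 CPM in macrophages, -0.27 (-0.46 to -0.09), and 64.0 and 60.0 CPM in DC. All 6 regulators of this role were above 0 in NK cells, against 45.4% of all genes, with a median of 0.37. All 6 were below 0 in macrophages, against 57.6% of all genes, with a median of -0.63.

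**Figure D4:**
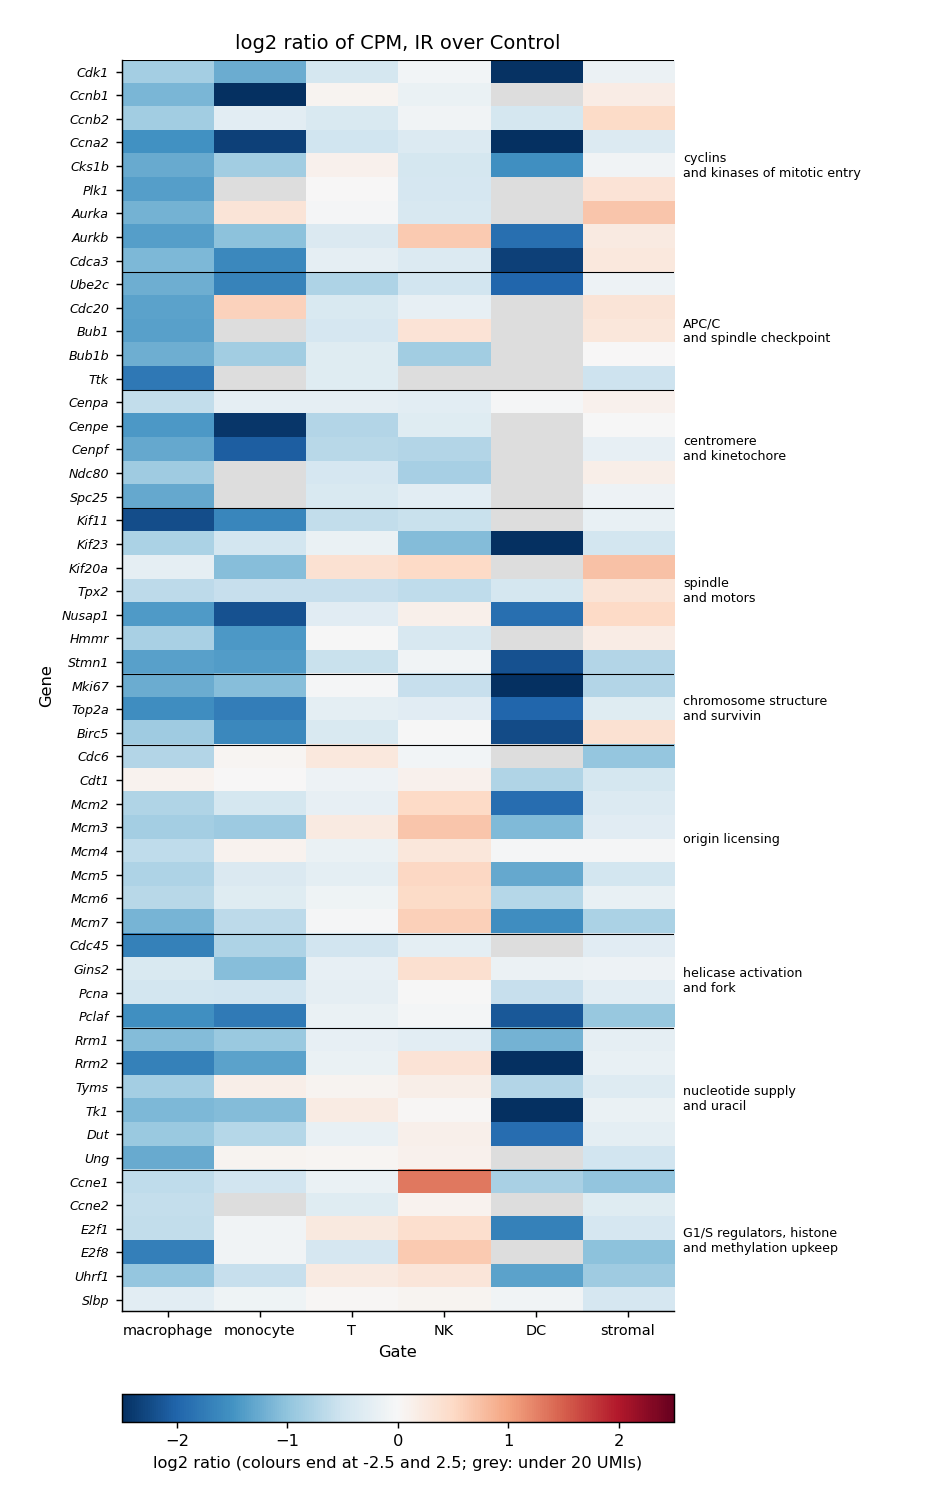
log2 ratio of CPM, IR over Control, of each member, by role and gate. Blue is lower and red higher in IR, and grey marks members with under 20 UMIs in the gate. The macrophage, monocyte and DC values are mostly blue, the T values are pale, and the NK values are red for 7 of 8 licensing genes.

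Of 36 further S, G2 and M genes outside the members, 35 were below 0 in macrophages, against 57.6% of all genes. Their median log2 ratio was -0.87, and 14 were at least 2-fold lower, against 5.21% of all genes. Below 0 were 20 of 26 in monocytes against 55% of all genes, 24 of 35 in T cells against 54.9%, 19 of 34 in NK cells against 54.6%, 17 of 19 in DC against 49.8% and 22 of 36 in the stromal gate against 54%. The medians in these gates were -0.21, -0.17, -0.05, -1.08 and -0.13, so that the NK list lay near all genes (-0.04). Genes that act before S phase were mixed in direction in macrophages, as all genes of the gate were. Of 13 G1 cyclins, kinases and Rb family genes, 8 were below 0, against 57.6% of all genes, and 5 above 0, against 42.4%. The G1 cyclin Ccnd2 was 72.3 and 178 CPM there, 1.30 (1.17 to 1.42), and Ccnd1 was 29.1 and 65.1 CPM in T cells, 1.16 (0.79 to 1.54). In macrophages Ccnd2 was the only gene of this list at least 2-fold higher, against 3.3% of all genes. E2f7 at -2.12 (-3.60 to -0.94) and Rbl1 at -1.07 (-1.56 to -0.62) were at least 2-fold lower there, against 5.21%. Of the 12 CDK inhibitors and brakes, 10 had at least 20 UMIs in macrophages and 8 of these were above 0, against 42.4% of all genes. Cdkn1a, which encodes the inhibitor p21, was above 0 in all 6 gates, with 394 and 572 CPM in macrophages, 0.54 (0.48 to 0.60), and 99.4 and 201 CPM in NK cells, 1.01 (0.81 to 1.22). The inhibitor gene Cdkn2c was below 0 in all 6 gates, with intervals that included 0 in monocytes and NK cells. At -1.33 (-1.91 to -0.79) it was the only one of the 10 at least 2-fold lower in macrophages, against 5.21% of all genes. The genes named from these lists were chosen after their values were seen.

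Outside all these lists, the genes whose detection was most like that of the members were sought among the 529 Control macrophages positive for either class and the 1492 that were not, by the difference in the share of cells with a UMI. The first was Tubb5, a tubulin, seen in 66.0% and 31.4% of them at 1000 UMIs. It was followed by H2afz (79.2% and 50%), Tuba1b (56.9% and 30.4%), Hmgb1, the histone gene Hist1h2ap (19.9% and 0.670%), Ube2s, Ran, H2afv, Ptma and Anp32b. In IR, where 53 macrophages were positive, the shares were 56.6% and 36.9% for Tubb5 and 5.66% and 0.513% for Hist1h2ap. Other genes of the list lay closer together in IR. H2afv was seen in 7.55% and 6.41% there, against 22.9% and 5.56% in Control. Ran and Anp32b were each seen in 32.1% and 25.1% in IR. Positive macrophages also held more RNA, with a median of 10712 UMIs against 7762.5 in Control and 15160 against 8831 in IR.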

How the data were processed

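Single cells from 1 Control and 1 IR library were profiled with a 3' UMI kit. Per the study's methods, the authors made the deposited tables, which hold unnormalised UMI counts, with Cell Ranger (6.0.1 in the submitters' processing notes, 4 in the file header) on mm10, and no cell annotation. Barcodes with at least 1000 UMIs and at most 25% mitochondrial UMIs were kept. Gates required at least 2 marker genes and a cutoff on their UMIs per 10000, set after the data were seen. Barcodes with markers of 2 lineages were set aside in place of a doublet caller. Members and lists were chosen with earlier results of these data known. Members described singly were the first of each role and the 3 lowest and 3 highest ratios of each gate; further examples were chosen after their values were seen. Ratios needed 20 UMIs over both libraries. Total UMIs were 48593879 and 42406461, and intervals were exact Clopper-Pearson, Poisson and conditional ones. Gene positions came from the GENCODE annotation on mm10. Scripts in Python 3.11.15 with numpy 2.4.6 and scipy 1.17.1 were tested on simulated data, and TMM factors came from edgeR 4.0.16. Alternatives changed the UMI minimum, mitochondrial limit, gates, thinning, positivity cutoff, scaling, gene set, deepest barcodes and free RNA.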

Additional observations from a re-analysis of the deposited data

Results flagged for a closer look

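The S-phase sum went in opposite directions between gates. The log2 ratio, IR over Control, was 0.20 in NK cells, whereas it was -0.80 in macrophages, -0.44 in monocytes, -0.10 in T cells, -1.02 in DC and -0.37 in stromal cells. With 1 library per group each gate gave 1 value per condition, and the difference between gates was not tested. The T and stromal values changed sign under at least 1 alternative, and the NK, macrophage, monocyte and DC values did not.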

How the results depend on the processing

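No paired analysis was possible because each condition had a single library. Of 311 values recomputed under an alternative, 262 lay within the counting interval of the value reported, 43 lay outside it, and 6 changed direction although that interval excluded no difference. The cause was not tested except where the setting itself names it. In macrophages all alternatives left both sums and both share ratios lower in IR. Without the 6% of barcodes with most UMIs, the log2 ratio of the mitotic sum was -1.40 in macrophages, -0.87 in monocytes, -0.82 in T cells, -0.54 in NK cells, -1.13 in DC and 0.19 in stromal cells, and that of the S-phase sum was -0.25 in T cells, 0.11 in NK cells, -0.38 in DC and 0.55 in stromal cells. With each cell given equal weight, an alternative chosen after seeing the data, as was the mean over all thinnings, the mitotic value was -1.47 in macrophages, -0.77 in monocytes, -0.44 in T cells, -0.33 in NK cells, -1.11 in DC and 0.27 in stromal cells, and the S-phase value -0.91 in macrophages, -0.63 in DC and -0.17 in stromal cells. With stricter gates the mitotic value was -0.16 in NK cells and -1.46 in DC, and the S-phase value 0.12 in T cells and -0.83 in DC. With looser gates the mitotic value was -1.25 in monocytes and -0.14 in NK cells, and the S-phase value 0.29 in NK cells. After removal of the estimated free RNA the mitotic value was -0.63 in monocytes and -2.10 in DC, the S-phase value -0.23 in monocytes and -1.31 in DC, and the mitosis-positive share ratio 0.23 in DC. Without mitochondrial and ribosomal genes in the total, the mitotic value was -1.25 in macrophages and -0.45 in T cells, and the S-phase value -0.88 and -0.19. TMM scaling gave an S-phase value of -0.046 in T cells. Without Stmn1, Cks1b, Slbp, Dut and Ung the stromal mitotic value was 0.024. Without thinning, the mitosis-positive share ratio was 0.64 in macrophages, and the S-phase-positive one 0.95 in macrophages and 1.19 in monocytes. With barcodes from 500 UMIs thinned to 500, the mitosis-positive ratio was 0.24 in macrophages and 0.37 in monocytes, the S-phase-positive ratio was 0.27 in DC, and the mitosis-positive ratio of DC had no value because 1 share was 0. Calling cells positive with at least 1 UMI gave S-phase-positive ratios of 0.69 in macrophages and 0.85 in monocytes. Requiring at least 3 UMIs gave mitosis-positive ratios of 0.36 in monocytes and 0.15 in DC, and S-phase-positive ratios of 0.39 in DC and 0.75 in stromal cells. Thinned to 1000 UMIs, the mitosis-positive DC shares rested on 9 and 8 cells and those of monocytes on 13 and 21. Both libraries pool tumors, so no interval here covers differences between mice, and dissociation, sort and sequencing run cannot be told apart from irradiation.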
